A study of Homo sapiens with 6 samples.

Results

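Heat shock proteins and J-domain cochaperones are described here, taken as the entries of the deposited gene table whose symbol belongs to HSP70 (HSPA), HSP90 (HSP90A), the small heat shock proteins (HSPB), the J-domain families, or is HSPD1, HSPE1, HSPH1, HSF1, HSF2 or BAG3. HSPA5, DNAJB9 and DNAJC3, genes of the endoplasmic reticulum stress response, were left out of the rule. The rule matched 93 entries. Of these, 12 lie on alternative haplotypes of chromosome 6, were at 0 in each tumor and were left out. This gave 81 members of 24000 entries, of which 73 carry a gene symbol, 6 a pseudogene symbol and 2 an antisense symbol.

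Heat shock proteins are chaperones that bind unfolded proteins and help them to fold, be carried or be degraded. HSP70 proteins work in cycles of ATP hydrolysis that J-domain proteins (the DNAJA, DNAJB and DNAJC families) start, that nucleotide exchange factors such as HSPH1 and BAG3 end, and that pass clients on to HSP90 or to the chaperonin HSPD1 with its lid HSPE1. HSF1 is the transcription factor that turns many of these genes on when proteins misfold, and tumor cells often depend on this response.

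RNA was sequenced from PC-3 tumors, which come from 1 androgen-independent line of human prostate cancer cells, grown in nude mice treated with vehicle (n = 3) or with WCE, a standardized extract of the herb Wedelia chinensis (n = 3), for 10 weeks. The study used male athymic nude mice, 6 weeks old when obtained, whose anterior prostate was injected with PC-3 cells carrying a luciferase reporter, and gave WCE by gavage. Both groups share the cell line, the host strain and the treatment time, and the labels of the sequenced tumors give no dose. The 10 weeks are those of the labels. The paper states a shorter treatment of its orthotopic tumors, and its doses of WCE differ between passages. The comparison asks which transcripts differ between WCE-treated and vehicle-treated tumors.

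Values are FPKM, fragments scaled to transcript length and to the mapped fragments of each library, as the authors deposited them. Read counts are not part of the table, and the absolute depth is unknown. Relative to vehicle replicate 3, the depth read from the steps of low values was 25% in WCE replicate 1 and 64.8% to 85.2% in the other 4 tumors. Vehicle replicate 3 and WCE replicate 1 were nearly identical, with a median absolute log2 difference of 0.028 over 1915 entries with a mean of at least 50 FPKM, against 0.095 to 0.25 for the other 14 pairs, and 0 entries were detected in the WCE tumor of this pair and not in the other. Either may carry the wrong label, or both may come from 1 tumor, and these cannot be told apart here. The n = 3 per group, and each fold change and p-value over all 6 tumors, therefore hold only as far as the labels do. For this reason results are also given with this near-identical pair left out, as 2 tumors against 2. Sets of 3 values are in the order of replicates 1, 2 and 3. The 6 markers listed for PC-3 summed to between 1479 and 1858 FPKM, but they did not run together. Of these, EPCAM was at 305, 249.9 and 185 FPKM under vehicle and 180.0, 138 and 123 FPKM under WCE, CDH1 was at 57.8 to 61.4 FPKM under vehicle and 35.9 to 56.5 FPKM under WCE, and the mesenchymal gene VIM, which PC-3 cells express, was at 275 to 411 FPKM under vehicle and 378 to 546 FPKM under WCE. The part of these differences in the results was not tested. The prostate markers KLK3 and KLK2 were at 0 in each tumor. The 5 muscle markers summed to at most 0.29 FPKM, and the 7 fibroblast markers to 14.0 FPKM in WCE replicate 2 and to between 44.0 and 58.8 FPKM in the other tumors. The fibroblast sums were mostly COL1A1 and COL3A1. In bulk tumors, fewer cells of a type and less RNA per cell cannot be told apart. The host cells of these tumors are from the mouse, and the handling of mouse reads is not given. The fibroblast, endothelial and leukocyte values here and below therefore cannot be read as amounts of those cells.

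The promoters of members were searched because HSF1 binds repeats of the bases GAA and TTC, the heat shock element. The 64 members with a promoter in the RefSeq table (GRCh38.p14) have 84 promoters, each 250 bases before to 50 bases after a start. A three-unit element, GAANNTTC followed by NNGAA on either strand, was in 7 of these 84 promoters (8.33%), against 172 of all 35116 promoters (0.49%). Of the 7, 6 belong to members of a list of textbook targets of HSF1, called heat-inducible below, which has 25 promoters. These stretches are shown because they are the upstream matches to this element among the members, with the element nearest the start in capitals and each read in the direction of its gene.
HSPA6, chr1:161524441-161524503, + strand: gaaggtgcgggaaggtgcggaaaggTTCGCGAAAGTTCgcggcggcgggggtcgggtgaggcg
HSPA8, chr11:123062154-123062216, - strand: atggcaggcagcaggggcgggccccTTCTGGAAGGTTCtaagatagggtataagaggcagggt
HSP90AA1, chr14:102087095-102087157, - strand: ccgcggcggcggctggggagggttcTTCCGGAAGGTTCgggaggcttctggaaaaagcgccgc
HSP90AB1, chr6:44247806-44247868, + strand: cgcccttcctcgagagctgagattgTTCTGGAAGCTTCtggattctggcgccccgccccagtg
HSPD1, inner start, chr2:197500043-197500090, - strand: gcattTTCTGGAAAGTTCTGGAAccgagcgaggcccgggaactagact
DNAJB6, chr7:157336848-157336910, + strand: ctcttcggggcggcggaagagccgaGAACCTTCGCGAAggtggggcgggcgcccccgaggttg

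In HSPA6 the element lies 74 to 62 bases before the start, and in HSPA8 55 to 43 bases before it. The HSPD1 stretch holds overlapping matches, and HSPA8 and HSP90AB1 each have a further match farther upstream. The seventh promoter is that of DNAJA1, where the match lies after the start and is not printed. The letters of the three-unit element were not found in the windows of HSPH1 or HSPE1.
The shorter element GAANNTTC, which the three-unit element contains, was in 21.4% of the members' promoters and 6.77% of all promoters. HSPA1A and HSPA1B, which encode the same stress-inducible HSP70, both carry it upstream, in capitals here, and their stretches differ by few bases.
HSPA1A, chr6:31815412-31815469, + strand: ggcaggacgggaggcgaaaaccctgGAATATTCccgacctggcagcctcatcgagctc
HSPA1B, chr6:31827608-31827665, + strand: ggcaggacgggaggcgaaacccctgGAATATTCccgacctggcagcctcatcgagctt
HSPD1 and HSPE1 are transcribed away from each other, and 104 bases lie between the outer HSPD1 start and the HSPE1 start. This shared stretch is shown on the + strand because it lies between the starts of both genes.
HSPD1 to HSPE1, chr2:197500275-197500378, + strand: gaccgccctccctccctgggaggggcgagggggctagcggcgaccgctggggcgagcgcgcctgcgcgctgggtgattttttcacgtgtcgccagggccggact

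Of the 81 members, 60 had a mean of at least 0.5 FPKM over the 6 tumors and were compared. The lowest of them was DNAJA4, at 0.59 FPKM, and the highest left out was DNAJB7, at 0.45 FPKM. Of the 21 left out, 8 were listed at 0 in each tumor, among them DNAJC5B and the small heat shock proteins HSPB3 and HSPB9, and no value of the other 13 was above 0.62 FPKM. HSPB8, a partner of BAG3, was among these, at 0.15 to 0.51 FPKM. Within the tested set, 3 transcripts held 47.7% to 50.3% of the members' summed FPKM in each tumor. These were HSP90AA1, HSPA8 and HSP90AB1, the major cytosolic HSP90 and HSP70 chaperones, with means of 926, 904 and 840.3 FPKM and ranks of 96, 98 and 112 among all entries. The summed FPKM of the members was 6687, 5323 and 5126 in vehicle replicates 1, 2 and 3 and 5111, 5040 and 5118 in WCE replicates 1, 2 and 3. In summed FPKM, vehicle replicate 1 thus stood above the other 5 tumors, which lay close together. As a share of all FPKM, the members held 0.996%, 0.842% and 0.830% in vehicle replicates 1, 2 and 3. The shares in WCE replicates 1, 2 and 3 were 0.824%, 0.770% and 0.727%. By share, vehicle replicate 1 was again the highest, and WCE replicates 2 and 3 were the lowest.

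Groups were compared by limma on log2(FPKM + 1) over all 13287 entries with a mean of at least 0.5 FPKM, and p-values were adjusted over all of these by the Benjamini-Hochberg method. The fold changes that follow are on that scale, WCE minus vehicle, which understates changes of low genes. None of the 60 members passed the adjusted threshold (limma, 0 of 60, lowest adjusted p = 0.623), beside 0.00753% of all entries. An unadjusted p under 0.05 was given to 4 members, 1 higher and 3 lower in WCE-treated tumors, beside 7.1% of all entries (3.78% higher and 3.33% lower). This share of 4 in 60 is close to that of all entries. An unmoderated test called 0 members after adjustment and 3 before it, beside 4.46% of all entries before adjustment.

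More members lay below than above 0. The log2 fold change was negative in 41 of 60 members (68.3%), against 51.4% of all entries, with a median of −0.11 over the members and −0.0063 over all entries. Without vehicle replicate 1 the negative share was 58.3% (all entries 50.5%) and the median was −0.047. The 3 WCE-treated tumors lay below the 3 vehicle-treated tumors, with no overlap, in 7 members (beside 6.4% of all entries), and above them in 1 member (beside 6.37%), 8 in all beside 12.8%. The 7 were HSP90AB1, HSPE1, DNAJA1, DNAJA4, DNAJB11, DNAJB14 and DNAJC16, and the 1 was HSPA6. DNAJA4 reached the filter only through the vehicle-treated tumors, whose mean was 0.75 FPKM, against 0.44 FPKM under WCE. Its place among the 7 is therefore not support for a difference.

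**Figure D1:**
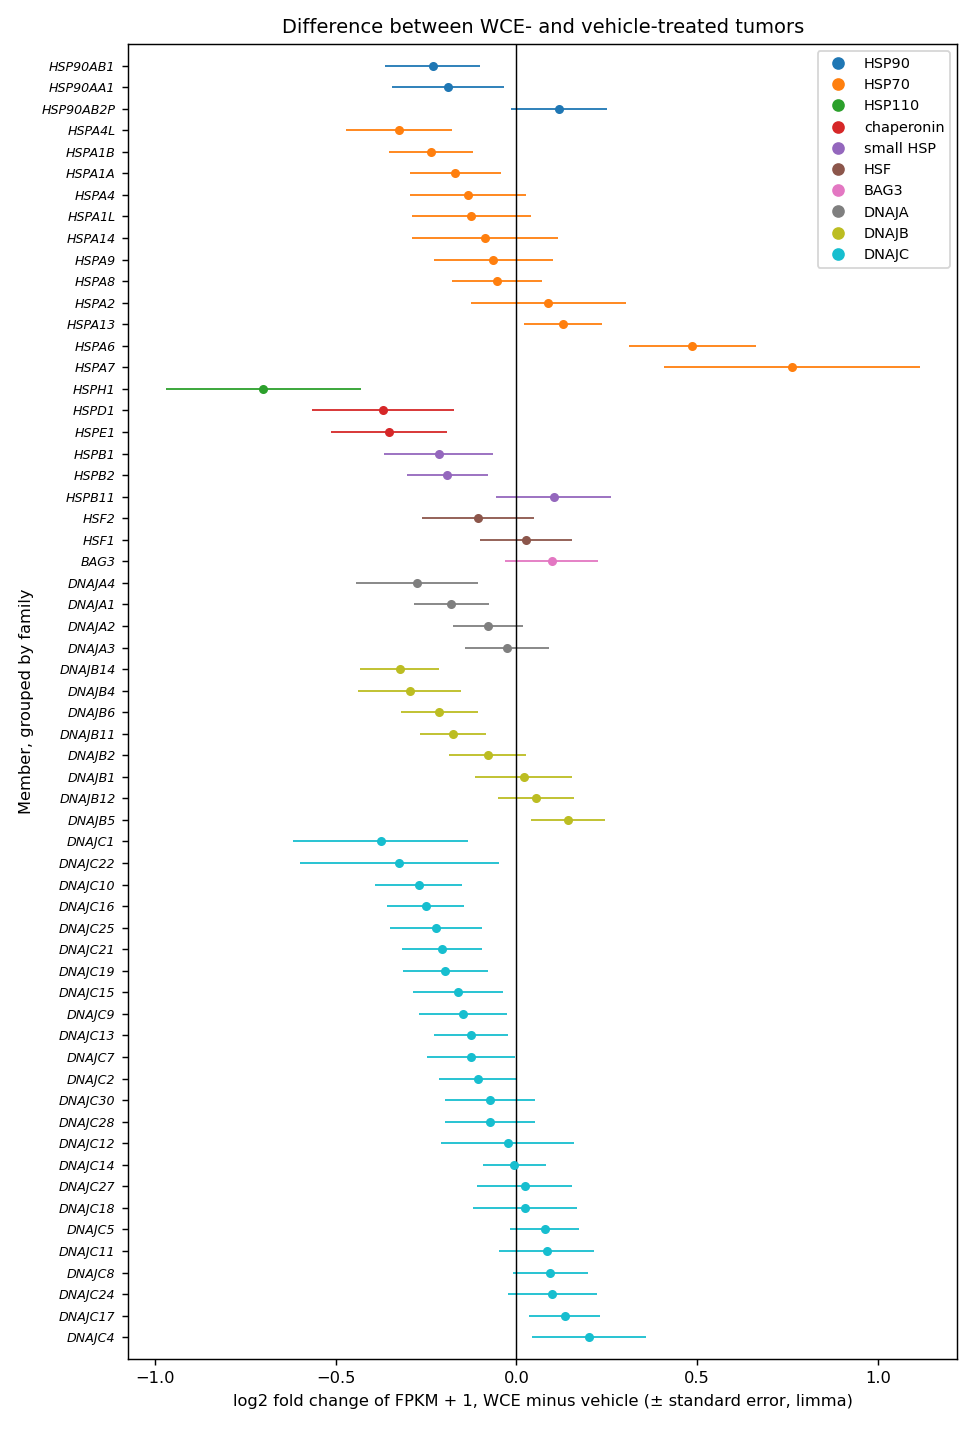
Log2 fold change of FPKM + 1, WCE minus vehicle, for the 60 tested members (points) with the standard error from limma (bars), grouped by family. Values run from −0.70 in HSPH1 to 0.76 in HSPA7, and 41 of 60 points lie below 0.

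The HSP90 genes were among the most abundant transcripts of these tumors. HSP90AA1, the stress-inducible cytosolic HSP90 (hg19 chromosome 14, 102547075 to 102606086), was at 1235, 877 and 865 FPKM in vehicle replicates 1, 2 and 3 and at 867, 833 and 875 FPKM in WCE replicates 1, 2 and 3. HSP90AB1, the constitutive form (chromosome 6, 44214849 to 44221614), was at 1063, 837 and 830.0 FPKM in the vehicle replicates and at 820.2, 724 and 767 FPKM in the WCE replicates. Vehicle replicate 1 was the highest tumor for both, and only HSP90AB1 separated the groups. Their log2 fold changes were −0.19 ± 0.15 (SE, unadjusted p = 0.259, limma) and −0.23 ± 0.13 (SE, unadjusted p = 0.118, limma). Without vehicle replicate 1 they were −0.021 and −0.12. Among the HSP90 pseudogenes, HSP90AB2P was tested, at 2.87 to 4.09 FPKM with overlapping groups. HSP90AB3P shares 19.3% of its stretches of 50 bases with HSP90AB1, so reads could be split between them. It was listed at no more than 0.058 FPKM in any tumor.

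HSP70 genes differed in direction. HSPA8, the constitutive cytosolic HSP70, was at 1067, 827 and 877 FPKM under vehicle and 862, 898 and 894 FPKM under WCE. HSPA9, the mitochondrial HSP70, was at 157, 116 and 105 FPKM under vehicle and 104, 128 and 125 FPKM under WCE. In both genes the groups overlapped, and the log2 fold changes of −0.053 and −0.064 became 0.055 and 0.10 without vehicle replicate 1. The locus of HSPA9 is shared by 2 entries.
HSPA1A and HSPA1B, the inducible HSP70 pair on chromosome 6, were each moderately expressed. HSPA1A (31783291 to 31785719) was at 50.5, 41.6 and 44.1 FPKM under vehicle and 44.0, 34.5 and 42.7 FPKM under WCE. HSPA1B (31795512 to 31798031) was at 49.2, 47.4 and 40.4 FPKM under vehicle and 40.3, 34.5 and 40.9 FPKM under WCE. The groups overlapped in both. Of the stretches of 50 bases in the HSPA1A transcript, 72.6% also occur in HSPA1B (GENCODE 29), so the division of reads between them is uncertain. Their sum was 91.1 ± 7.88 FPKM under vehicle and 78.9 ± 8.66 FPKM under WCE (SD, n = 3 each).

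HSPA6 and HSPA7 had the highest fold changes of the members. HSPA6, a strictly stress-inducible HSP70 that rodents lack (chromosome 1, 161494036 to 161496687), was at 9.43, 9.25 and 9.06 FPKM in vehicle replicates 1, 2 and 3 and at 10.1, 13.6 and 17.3 FPKM in WCE replicates 1, 2 and 3. The vehicle-treated tumors were nearly equal, and each WCE-treated tumor was above them, WCE replicate 1 by the least. The log2 fold change was 0.49 ± 0.18 (SE, unadjusted p = 0.0254, adjusted p = 0.623, limma), and by exact permutation (two-sided) p was 0.1, which 3 tumors against 3 cannot go below. With 1 tumor omitted it ran from 0.31 (without WCE replicate 3, unadjusted p = 0.0829, limma) to 0.67 (without WCE replicate 1), and each single omission but that of WCE replicate 1 brought the unadjusted p above 0.05. Without the near-identical pair it was 0.66.
HSPA7, its neighbor at 161575849 to 161578341, which RefSeq lists as a transcribed pseudogene, was at 2.47, 4.63 and 5.08 FPKM under vehicle and 3.91, 11.3 and 8.63 FPKM under WCE. WCE replicate 1 lay among the vehicle-treated tumors, and the other WCE-treated tumors lay above all of them. The log2 fold change was 0.76 ± 0.35 (SE, unadjusted p = 0.0651, limma), and from 0.48 (without WCE replicate 2) to 1.14 (without WCE replicate 1) with 1 tumor omitted. Without the near-identical pair it was 1.30 (unadjusted p = 0.00434, adjusted p = 0.179, limma). HSPA7 shares 56.3% of its stretches of 50 bases with HSPA6, and the sum of the pair was 11.9, 13.9 and 14.1 FPKM under vehicle and 14.0, 24.9 and 25.9 FPKM under WCE. In the sum, WCE replicate 1 was not separated from the vehicle-treated tumors, and WCE replicates 2 and 3 were.
HSPA4L, an HSP110-type exchange factor, was low, at 3.72, 2.88 and 3.72 FPKM under vehicle and 2.91, 2.04 and 2.69 FPKM under WCE. Its log2 fold change was −0.32 ± 0.15 (SE, unadjusted p = 0.0582, limma). The other 5 tested HSP70 members, which include the testis-enriched HSPA2 and HSPA1L, had log2 fold changes from −0.13 to 0.13 and unadjusted p of at least 0.264.

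**Figure D2:**
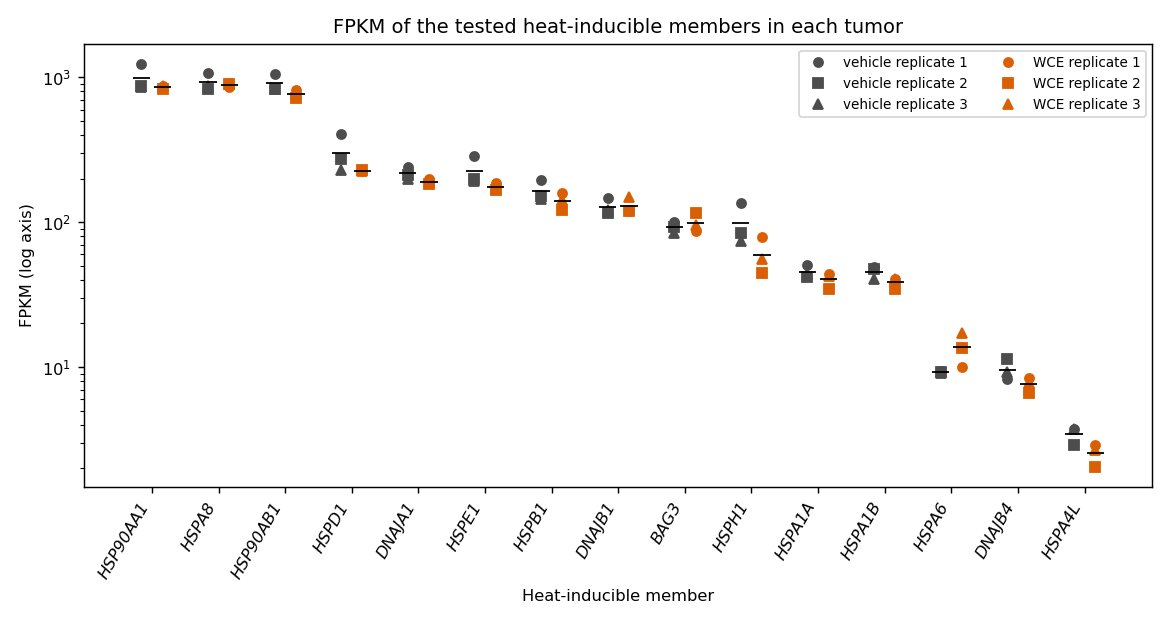
FPKM (log axis) of the 15 tested heat-inducible members in each tumor. Gray symbols are vehicle-treated and orange symbols WCE-treated tumors, the shape gives the replicate number and black bars the group means. Vehicle replicate 1 is the highest tumor in 10 of 15 genes, and HSPA6 has each WCE-treated tumor above the vehicle-treated ones.

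HSPH1, the HSP110 nucleotide exchange factor of HSP70 (chromosome 13, 31710763 to 31736117), had the most negative log2 fold change of the members. It was at 137, 84.4 and 74.7 FPKM in vehicle replicates 1, 2 and 3 and at 79.1, 44.4 and 56.1 FPKM in WCE replicates 1, 2 and 3. Vehicle replicate 1 was far above the rest, WCE replicates 2 and 3 were below all of the vehicle-treated tumors, and WCE replicate 1 lay between vehicle replicates 2 and 3. The log2 fold change was −0.70 ± 0.27 (SE, unadjusted p = 0.0337, adjusted p = 0.623, limma). With 1 tumor omitted it ran from −0.92 (without WCE replicate 1) to −0.44 (without vehicle replicate 1, unadjusted p = 0.105, limma), and the unadjusted p stayed under 0.05 in 2 of these 6 fits, those without a tumor of the near-identical pair. It was −1.09 without the near-identical pair (unadjusted p = 0.00735, adjusted p = 0.183, limma). WCE replicate 2, the lowest tumor for HSPH1, also had the lowest sum of fibroblast markers, whose part in this result was not tested. That sum was mostly COL1A1 (10.4 FPKM) and COL3A1 (1.81 FPKM). ACTA2 was lowest in vehicle replicate 2 and DCN in WCE replicate 3, and the other fibroblast markers were lowest in WCE replicate 2.

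The mitochondrial chaperonin genes, HSPD1 and HSPE1, both had negative log2 fold changes. HSPD1 was at 405, 274 and 228 FPKM under vehicle and 225, 230.3 and 226 FPKM under WCE. HSPE1, whose entry is joined with MOB4, was at 288, 199.5 and 193 FPKM under vehicle and 186, 168 and 169.7 FPKM under WCE. Vehicle replicate 1 stood highest in both, as it did in 29 of 60 members, and vehicle replicate 2 came next. The WCE-treated tumors lay close together, and among them WCE replicate 1 was the lowest for HSPD1 and the highest for HSPE1. The log2 fold changes were −0.37 ± 0.20 (SE, unadjusted p = 0.099, limma) and −0.35 ± 0.16 (SE, unadjusted p = 0.0622, limma). Without vehicle replicate 1 they were −0.14 and −0.17. Both entries are listed at the same locus, chromosome 2 from 198351308 to 198418423.
Of the 10 members listed as mitochondrial, 8 were lower in the WCE-treated tumors (background 51.4%) and 0 had a limma p under 0.05 before adjustment (background 7.1%). Of the 11 listed as belonging to the endoplasmic reticulum, 8 were lower and 2 had an unadjusted p under 0.05, DNAJB14 and DNAJC16, both lower (background 3.33%). Without vehicle replicate 1, 6 of the 10 and 7 of the 11 were lower (all entries 50.5%). An unadjusted limma p under 0.05 was then given to 0 and 1, the latter lower (all entries 3.18%, with 1.64% lower).

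Small heat shock proteins hold unfolded proteins without using ATP. HSPB1 was at 195, 152 and 144 FPKM under vehicle and 158, 121 and 143 FPKM under WCE. HSPB11, a ciliary transport protein that carries the family name, was at 63.3, 85.4 and 65.7 FPKM under vehicle and 66.7, 91.0 and 72.8 FPKM under WCE. The groups overlapped in both. The log2 fold changes were −0.22 ± 0.15 (SE) and 0.10 ± 0.16 (SE). That of HSPB1 became −0.084 when vehicle replicate 1 was omitted and −0.11 when WCE replicate 2 was. HSPB2, the third tested member, shares its entry with C11orf52.

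For the transcription factors the group means lay within the spread between tumors. HSF1, whose locus is shared by 2 entries, was at 53.0 ± 8.40 FPKM under vehicle and 53.7 ± 3.63 FPKM under WCE (SD, n = 3 each), and the log2 fold change was 0.027 ± 0.13 (SE). HSF2 was at 7.48 ± 0.58 and 6.97 ± 1.55 FPKM (SD, n = 3 each), and the log2 fold change was −0.11 ± 0.15 (SE). BAG3, an exchange factor that links HSP70 to autophagy, was at 100.1, 93.1 and 84.3 FPKM under vehicle and 87.4, 115 and 95.9 FPKM under WCE, with a log2 fold change of 0.098 ± 0.13 (SE). For all 3 genes the groups overlapped, and transcript levels do not measure the activity of HSF1.

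Among the 36 tested J-domain members, 25 were lower in the WCE-treated tumors and 11 higher (69.4% lower, background 51.4%), 2 had a limma p under 0.05 before adjustment, both lower (background 3.33%), and 0 an adjusted one. DNAJA1, a cytosolic partner of HSPA8, was at 241, 210.5 and 200.03 FPKM under vehicle and 197, 185 and 191 FPKM under WCE. Each WCE-treated tumor was below each vehicle-treated tumor, the nearest values being those of vehicle replicate 3 and WCE replicate 1. The log2 fold change was −0.18 ± 0.10 (SE, unadjusted p = 0.122, limma). DNAJA2, at 27.1 to 32.3 FPKM, had −0.078 ± 0.097 (SE).
DNAJB1, the main stress-inducible J-domain protein, was at 147, 115 and 121 FPKM under vehicle and 119.8, 120.0 and 148 FPKM under WCE. It was highest in 1 tumor of each group, and its log2 fold change was 0.020 ± 0.13 (SE). DNAJB4, a related cytosolic protein, was at 8.28, 11.4 and 9.19 FPKM under vehicle and 8.46, 6.61 and 7.79 FPKM under WCE, with a log2 fold change of −0.30 ± 0.14 (SE). Without vehicle replicate 1, its lowest vehicle-treated tumor, it was −0.39 (unadjusted p = 0.0354 by limma), and without vehicle replicate 2, its highest tumor, it was −0.18 (unadjusted p = 0.236 by limma).
DNAJB14 has its J-domain on the cytosolic face of the endoplasmic reticulum membrane. It gave the lowest unadjusted p of the members, at 11.8, 11.4 and 10.9 FPKM under vehicle and 9.76, 9.23 and 7.83 FPKM under WCE. The groups did not overlap, and the log2 fold change was −0.32 ± 0.11 (SE, unadjusted p = 0.0188, adjusted p = 0.623, limma). With tumors omitted it ran from −0.24 (without WCE replicate 3, unadjusted p = 0.0798, limma) to −0.41 (without the near-identical pair), and omitting WCE replicate 3 was the only single omission that brought p above 0.05. DNAJB11, which works with the HSP70 of the endoplasmic reticulum lumen, was at 140.4, 131 and 129 FPKM under vehicle and 125, 118 and 112 FPKM under WCE. Its groups did not overlap either, at a log2 fold change of −0.18 ± 0.092 (SE, unadjusted p = 0.096, limma). DNAJB6, whose promoter stretch is printed above, was at 129, 128 and 106 FPKM under vehicle and 106, 104 and 102 FPKM under WCE, with overlapping groups and a log2 fold change of −0.21 ± 0.11 (SE). DNAJB5, at 7.79 to 10.0 FPKM, was among the 5 highest fold changes, at 0.14 ± 0.10 (SE).

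DNAJC proteins share little beyond the J-domain. DNAJC16 was at 4.94, 5.43 and 4.79 FPKM under vehicle and 4.46, 3.84 and 3.95 FPKM under WCE, without overlap, with a log2 fold change of −0.25 ± 0.11 (SE, unadjusted p = 0.0488, adjusted p = 0.623, limma). With 1 tumor omitted it ran from −0.30 to −0.21, and each single omission but that of WCE replicate 1 brought the unadjusted p above 0.05. Its locus is shared by 2 entries. DNAJC1, a membrane protein of the endoplasmic reticulum, was at 57.8, 31.7 and 28.8 FPKM under vehicle and 27.6, 27.2 and 31.6 FPKM under WCE. Vehicle replicate 1 alone was apart, and the log2 fold change of −0.38 ± 0.24 (SE) became −0.071 without it.
DNAJC9, a histone chaperone, was at 189.9, 161 and 142 FPKM under vehicle and 144, 152 and 145 FPKM under WCE, with overlapping groups. DNAJC4 was at 30.4, 28.3 and 28.4 FPKM under vehicle and 25.8, 37.1 and 39.1 FPKM under WCE. WCE replicate 1 was the lowest tumor for DNAJC4 and the other WCE-treated tumors were the highest. Its log2 fold change was 0.20 ± 0.16 (SE), 0.091 without WCE replicate 3, 0.13 without WCE replicate 2 and 0.38 without WCE replicate 1. It was 0.37 without the near-identical pair (unadjusted p = 0.0162, adjusted p = 0.207, limma). DNAJC17 had 0.13 ± 0.099 (SE), and DNAJC25, whose entry is joined with GNG10, had −0.22 ± 0.13 (SE). The other 18 tested DNAJC members had log2 fold changes from −0.32 to 0.10 and unadjusted p of at least 0.0574.

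**Figure D3:**
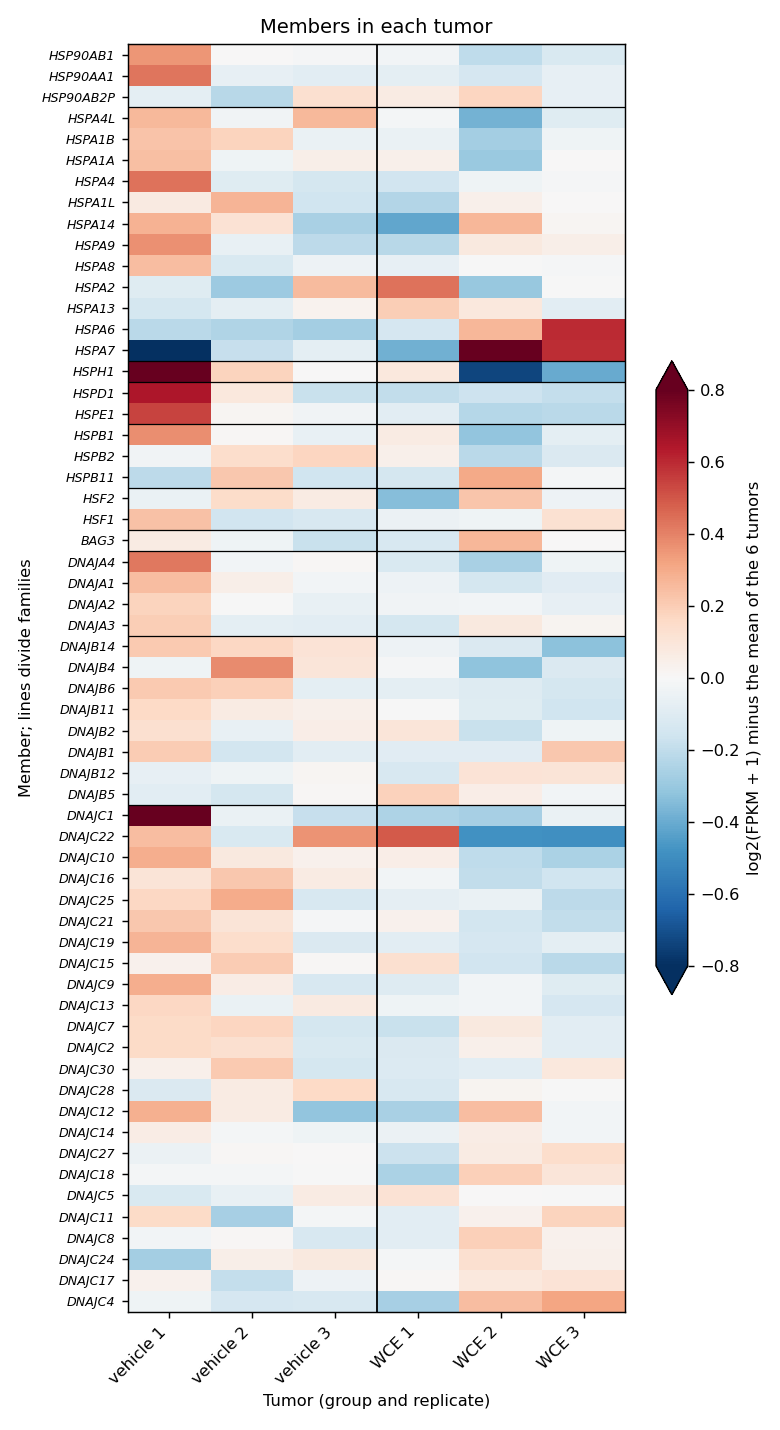
Log2(FPKM + 1) of the 60 tested members in each tumor, minus the mean of the 6 tumors, with families divided by lines and the color scale ending at −0.8 and 0.8. Vehicle replicate 1 is mostly red, vehicle replicate 3 and WCE replicate 1 look alike, and HSPA6 and HSPA7 are red in WCE replicates 2 and 3.

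Across tumors, vehicle replicate 1 carried the highest levels. It was the highest of the 6 tumors in 29 of 60 members (48.3%), against 28.4% of all 13287 entries. Its median deviation from the mean of the 6 tumors was 0.16 on the log2(FPKM + 1) scale over the members, against 0.011 over all entries, and the other 5 tumors had medians over the members from −0.074 to 0.0077. HSPA6 and HSPA7 were not high in this tumor. Vehicle replicate 1 also had the lowest summed levels of the 5 endothelial markers (1.20 FPKM, against 3.21 to 7.60 FPKM). These sums were mostly PECAM1 and KDR, while VWF, near the floor, was highest in vehicle replicate 1 (0.089 FPKM). The highest sum, in WCE replicate 3, held KDR at 5.12 FPKM. The 6 leukocyte markers were also lowest in vehicle replicate 1 (25.8 FPKM, against 31.3 to 44.7 FPKM, nearly all of it CD68). Immediate early genes, which respond to the handling of tissue, summed to 205 FPKM there and to between 182 and 239.7 FPKM in the other tumors. The part of these differences in the result was not tested.

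The heat-inducible list holds 16 textbook targets of HSF1 among the members, of which 15 were tested (HSPB8 was too low). It includes HSPA8 and HSP90AB1, described above as constitutive, so it does not hold inducible genes only. Both of these had negative log2 fold changes. Of the 15, 12 were lower in the WCE-treated tumors and 3 (HSPA6, BAG3 and DNAJB1) had a fold change above 0, beside 51.4% of all entries lower. An unadjusted p under 0.05 was reached by 2 (HSPH1 lower, HSPA6 higher), beside 7.1% of all entries (3.33% lower and 3.78% higher), and an adjusted one by 0 (limma). The median log2 fold change was −0.22, beside −0.0063 over all entries. It was −0.10 without vehicle replicate 1, where 11 were lower (all entries 50.5%) and 1 had an unadjusted p under 0.05 (all entries 3.18%), and −0.34 without the near-identical pair. The 45 other tested members had a median of −0.078, with 29 lower. Vehicle replicate 1 was the highest tumor in 10 of the 15.

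**Figure D4:**
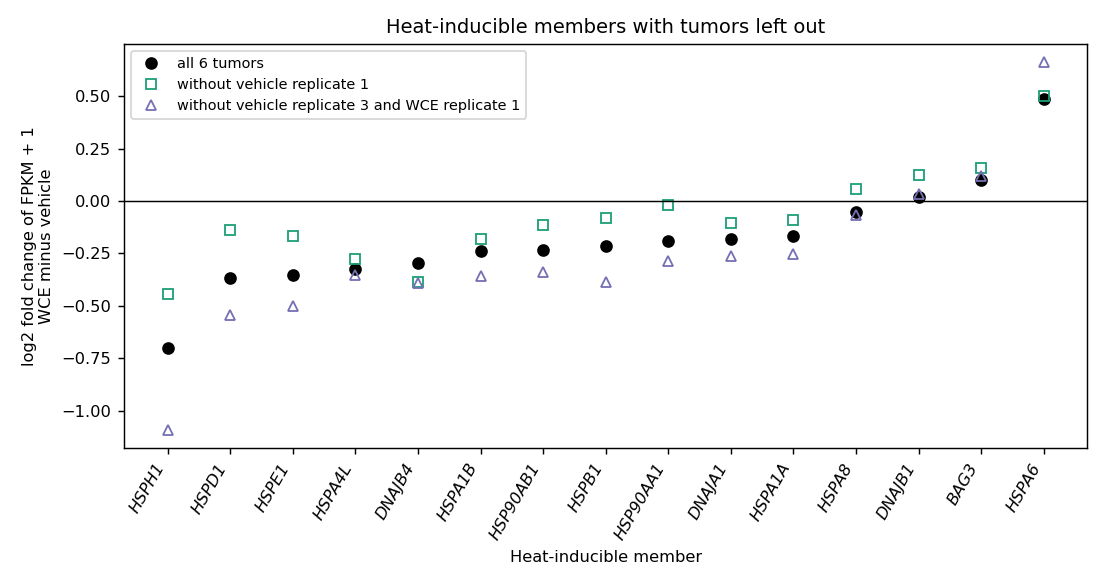
Log2 fold change of FPKM + 1, WCE minus vehicle, of the 15 tested heat-inducible members with all 6 tumors (filled circles), without vehicle replicate 1 (squares) and without vehicle replicate 3 and WCE replicate 1 (triangles). Over these 3 fits HSPH1 runs from −0.44 to −1.09 and HSPA6 from 0.49 to 0.66.

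In the comparison of 2 tumors against 2, 15 of 60 members had p under 0.05 before adjustment (limma), 12 lower and 3 higher, beside 18.4% of all entries (9.59% lower and 8.84% higher), and 0 after adjustment, beside 0.0376%. There 39 of 60 members were lower (65.0%), beside 51.3% of all entries. The 3 higher were HSPA6, HSPA7 and DNAJC4. Without vehicle replicate 1 it was 2 of 60, both lower (DNAJB4 and DNAJB14), beside 3.18% of all entries (1.64% lower and 1.54% higher).

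The other genes of the chaperone network were taken from a list of 46 cochaperones, chaperonin and prefoldin subunits and related factors, all of which were tested. Of these, 35 were lower in the WCE-treated tumors (76.1%, background 51.4%), 7 had a limma p under 0.05 before adjustment, all of them lower (background 3.33%), and 0 had an adjusted one. The median log2 fold change was −0.10. Vehicle replicate 1 was the highest tumor in 28 of the 46, and without it 27 were lower (58.7%, all entries 50.5%), 2 had an unadjusted p under 0.05 (all entries 3.18%) and the median was −0.044. The lowest unadjusted p was that of GRPEL1, the exchange factor of HSPA9, which was at 41.9, 40.2 and 40.1 FPKM under vehicle and 34.7, 30.3 and 28.96 FPKM under WCE. The groups did not overlap, at a log2 fold change of −0.37 ± 0.099 (SE, unadjusted p = 0.00614, adjusted p = 0.623, limma). HSCB, a mitochondrial J-domain protein of iron-sulfur cluster assembly, was at 15.1, 18.9 and 13.7 FPKM under vehicle and 11.3, 12.4 and 9.73 FPKM under WCE, a log2 fold change of −0.47 ± 0.14 (SE). CHORDC1, an HSP90 cochaperone, VBP1 and PFDN6, prefoldin subunits, and PPID, an HSP90-binding prolyl isomerase, had log2 fold changes of −0.40, −0.38, −0.40 and −0.44. In GRPEL1, HSCB, CHORDC1, VBP1 and PFDN6 the groups did not overlap, which the choice by lowest p favors. Of all 46, the WCE-treated tumors lay below without overlap in 10 (all entries 6.4%) and above in 0 (all entries 6.37%). Without vehicle replicate 1 the 6 genes named had log2 fold changes from −0.50 to −0.28.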

How the data were processed

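RNA from 3 vehicle-treated and 3 WCE-treated PC-3 tumors was analyzed. Per the labels, libraries were stranded and made from polyadenylated RNA, and the submitters' processing notes name TopHat2 2.0.13, Cufflinks, hg19 and mm10 without their roles. The annotation, the use of strand in counting, the handling of mouse reads and any scaling between columns are not given in the sources used here. The authors deposited FPKM values per gene entry, with 1 column for each tumor, matched by the labels. Listed starts are given with 1 base added, because 312 of 371 single-exon olfactory receptor loci then have a length divisible by 3, against 26 as listed.

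The groups were compared with limma 3.58.1 (R 4.3.3) on log2(FPKM + 1) with a mean-variance trend, after a filter at a mean of 0.5 FPKM, two-sided and adjusted over 13287 entries. The comparison was tested on simulated data only, and whether its p-values hold for these tumors was not tested. Each sample is labelled as its own tumor, and replicate numbers carry no stated link between groups. The p-values measure the spread between tumors only as far as these labels hold. Vehicle replicate 3 and WCE replicate 1 were nearly identical and may come from 1 tumor. In that case p-values from fits that keep both do not measure a spread between separate tumors. Relative depth was taken from the commonest ratio to vehicle replicate 3 among entries seen in at most 3 tumors. Shared stretches of 50 bases were counted in GENCODE 29 transcripts, and promoters came from RefSeq. Python 3.11.15, pandas 2.3.3 and matplotlib 3.10.9 were used.

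The members and lists were chosen with earlier results of these data known. Named members are the heat-inducible list, HSF1, HSF2 and BAG3, members with an unadjusted p under 0.05, the 5 highest and the 5 lowest log2 fold changes, and the 2 most abundant of each main family. From the cochaperones, the 6 with the lowest p were named. The members just above and below the filter were named too. DNAJB6, DNAJC5B, HSPA1L, HSPA2, HSPB2, HSPB3, HSPB9, HSP90AB2P and HSP90AB3P were named after their values were seen. Alternatives were the pseudocount, the filter, scaling, trend, moderation, tumor weights, a replicate block and tumors left out.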

Additional observations from a re-analysis of the deposited data

How the results depend on the processing

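Over 17 alternatives, 0 members had an adjusted p under 0.05, and the lowest adjusted p of a named member was 0.126, with limma array weights. The count of members with an unadjusted p under 0.05 was 4 in the comparison as designed. It was 17 with limma array weights and 15 with vehicle replicate 3 and WCE replicate 1 both left out, where 24.1% and 18.4% of all entries passed. With 1 tumor omitted at a time the count ran from 0 to 10: 2 without vehicle replicate 1 (beside 3.18% of all entries), 2 without vehicle replicate 2 (2.61%), 8 without vehicle replicate 3 (13.3%), 10 without WCE replicate 1 (15.3%), 1 without WCE replicate 2 (1.77%) and 0 without WCE replicate 3 (1.65%). The median log2 fold change of the members ran from −0.19 (without vehicle replicate 3) to −0.047 (without vehicle replicate 1), and that of the heat-inducible members from −0.28 to −0.10. The latter was −0.34 with vehicle replicate 3 and WCE replicate 1 both left out. With a replicate block, 7 members had an unadjusted p under 0.05, beside 7.89% of all entries. The deviations of same-numbered tumors correlated at −0.24, 0.16 and −0.093 across entries, and those of vehicle replicate 3 and WCE replicate 1 at 0.36. These values cannot decide whether the numbers pair the tumors, because the labels of that near-identical pair are in doubt.

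Of the 30 named members tested, 23 kept their direction in each alternative. The other 7 were reversed in at least 1 alternative. With limma array weights HSPA8 was 0.028 and HSPA9 was 0.071. With vehicle replicate 3 and WCE replicate 1 both left out, HSF2 was 0.045. With 1 tumor omitted, values ran from −0.012 to 0.19 for BAG3, −0.082 to 0.12 for DNAJB1, −0.042 to 0.15 for HSF1, −0.24 to 0.038 for HSF2, −0.13 to 0.055 for HSPA8, −0.18 to 0.10 for HSPA9 and −0.024 to 0.24 for HSPB11. The cause was not tested. Low genes are least precise in WCE replicate 1, which had the lowest depth, and the absolute depth is unknown.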
